A study of Mus musculus with 2 samples.

Results

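Drosha, Dgcr8, Dicer1, Ago1, Ago2, Ago3, Ago4, Tnrc6a, Tnrc6b and Tnrc6c encode the core of the microRNA pathway, and these 10 genes, of 32286 features counted, were chosen by symbol and found in both libraries. They were followed in mouse embryonic stem cells (ESCs, 0 h) grown in serum and LIF on feeder cells, and in epiblast-like cells after 48 h in N2B27 medium with activin A, bFGF and KSR (48h-EpiLCs). Each stage was 1 single-cell RNA-seq library in which 2 lines had been mixed in equal cell numbers: wild-type (WT) cells with the ROSA mT/mG reporter, which transcribe tdTomato, and Cnot8 knockout (KO) cells. The labels give the strain ICR for both libraries. By the study's methods, KO lines were derived from single blastocyst colonies after CRISPR/Cas9 targeting of an early exon of Cnot8, the gene of a catalytic deadenylase subunit of Ccr4-Not. A cell was taken as WT when it held at least 1 UMI (unique molecular identifier, 1 counted transcript) of tdTomato and 0 of the Y-linked genes Ddx3y, Eif2s3y, Kdm5d and Uty, and as KO when it held 0 of tdTomato and at least 2 of those.

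MicroRNA genes are transcribed as long hairpin-bearing RNAs. In the nucleus the Microprocessor, made of the RNase Drosha and its RNA-binding partner Dgcr8, cuts the hairpin out, and in the cytoplasm Dicer1 trims it to a short duplex. An Argonaute protein (Ago1 to Ago4) takes up 1 strand as its guide, and a Tnrc6 protein (GW182 family) bound to Argonaute brings in the Pan2-Pan3 and Ccr4-Not deadenylases, so that the Ccr4-Not complex acts downstream of the genes described here. Mouse ESCs without Dgcr8 or Dicer1 are known to differentiate poorly.

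Some of these genes carry or meet the pathway's own substrates, and the sequences below are shown because they tie the measured transcripts to microRNAs. The Dgcr8 transcript holds hairpins that Drosha is known to cut, one in the 5′ UTR and one in the coding sequence. In RefSeq (GRCm38.p6), the 4 mature arms lie on the minus strand of chromosome 16 inside Dgcr8, miR-3618-5p at chr16:18284602-18284623 and miR-3618-3p at chr16:18284562-18284583 in the 5′ UTR, and miR-1306-5p at chr16:18284288-18284310 and miR-1306-3p at chr16:18284248-18284268 in a coding exon. From the host transcript Mir17hg on the plus strand of chromosome 14 (miR-17-5p at chr14:115043684-115043706), 4 arms are given in pairs with a shared seed, AAAGUGC in miR-17-5p and miR-20a-5p and GUGCAAA in miR-19a-3p and miR-19b-3p. Capitals mark the seed, bases 2 to 8 from the 5′ end.
mmu-miR-3618-5p: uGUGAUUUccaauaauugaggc
mmu-miR-3618-3p: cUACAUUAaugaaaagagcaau
mmu-miR-1306-5p: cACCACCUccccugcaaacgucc
mmu-miR-1306-3p: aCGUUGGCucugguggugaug
mmu-miR-17-5p: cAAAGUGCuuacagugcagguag
mmu-miR-20a-5p: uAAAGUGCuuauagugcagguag
mmu-miR-19a-3p: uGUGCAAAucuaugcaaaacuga
mmu-miR-19b-3p: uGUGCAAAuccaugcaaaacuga

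Mature microRNAs were not measured, because the libraries count the 3′ ends of polyadenylated RNA.

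After cells with under 1000 genes or over 10% mitochondrial UMIs had been left out, 11054 of 13184 ESC barcodes and 9400 of 12427 48h-EpiLC barcodes remained. The rule gave 435 WT and 2978 KO ESCs and 368 WT and 2977 KO 48h-EpiLCs, with medians of 13151, 13368, 15598 and 17628 UMIs per cell. Most other kept cells held neither tdTomato nor a Y-linked UMI (5321 ESCs and 4247 48h-EpiLCs) or 1 Y-linked UMI alone (2238 and 1724), and 82 and 84 cells held tdTomato together with a Y-linked UMI. Of 41 barcodes shared by the libraries, 2 belonged to classed cells. UMIs were summed per stage and line and scaled to CPM (UMIs per 1e+06 UMIs of that class). Each stage had 1 library and no replicate, and values are therefore given without tests. Intervals are exact 95% intervals that cover counting error only, and they leave out the spread between cultures, which was not measured. Stage cannot be told apart from library or culture medium, nor loss of Cnot8 from other differences between the lines. The rule itself used Y-linked transcripts, so the difference of its classes in them was fixed in advance. All 6 markers of pluripotent cells (Pou5f1, Sox2, Sall4, Utf1, Dppa5a, Dppa4) exceeded 5 CPM in each class. The summed level of 6 naïve markers was 978 and 1299 CPM in WT and KO ESCs and 89.4 and 216 CPM in WT and KO 48h-EpiLCs. Cnot8 UMIs were at 43.1 CPM in WT and 72.1 CPM in KO ESCs, and at 49.7 CPM in WT and 62.6 CPM in KO 48h-EpiLCs. 3′ tags lie outside the targeted exon, so this level does not check the knockout.

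Of the 9 genes with a mean of at least 5 CPM, which leaves out Ago4, Ago3 was past 1.5-fold in KO over WT ESCs. Ago1 was past it in 48h-EpiLCs over ESCs of WT cells, and both ratios are given further on. Of all genes of that level, 5.61% were as much lower in the first comparison and 14.6% higher in the second. With lines from the score described further on, neither ratio reached 1.5-fold, whereas that of Tnrc6b in KO over WT ESCs did. Ago2, whose product is the Argonaute that can slice a paired target, was at 63.7 CPM (57.5 to 70.3) in WT ESCs, 78.4 CPM (75.8 to 81.1) in KO ESCs, 87.5 CPM (80.3 to 95.1) in WT 48h-EpiLCs and 85.7 CPM (83.4 to 88.1) in KO 48h-EpiLCs. WT ESCs were thus lowest, KO ESCs lay between, and the 48h-EpiLCs of both lines differed by less than the counting error. Ago1, which binds microRNAs but slices poorly, ran in a similar order at 15.6 CPM (12.6 to 19.05), 20.9 CPM (19.6 to 22.3), 25.6 CPM (21.7 to 29.9) and 27.8 CPM (26.5 to 29.2) in WT ESCs, KO ESCs, WT 48h-EpiLCs and KO 48h-EpiLCs. Ago3 was at 10.9 CPM (8.44 to 13.8) in WT ESCs and 6.01 CPM (5.31 to 6.78) in KO ESCs, from 67 and 265 UMIs, and these intervals did not overlap. In 48h-EpiLCs it was at 9.81 CPM (7.50 to 12.6) in WT cells and 7.49 CPM (6.81 to 8.22) in KO cells, so that WT was above KO at both stages, with overlapping intervals at the later one. Ago4 was hardly seen, with 3, 13, 4 and 15 UMIs in the 4 classes (WT and KO ESCs, then WT and KO 48h-EpiLCs), or at most 0.643 CPM, and no order can be read from it.

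The Microprocessor genes and Dicer1 stayed within a narrow range. Drosha was at 78.0 CPM (71.2 to 85.3) in WT ESCs, 74.2 CPM (71.6 to 76.7) in KO ESCs, 63.8 CPM (57.7 to 70.4) in WT 48h-EpiLCs and 71.8 CPM (69.7 to 74.0) in KO 48h-EpiLCs. WT 48h-EpiLCs were lowest, and the other 3 classes followed each other without a step beyond counting error. Dgcr8 was at 47.4 CPM (42.2 to 53.2), 46.0 CPM (44.0 to 48.0), 46.3 CPM (41.1 to 52.0) and 44.8 CPM (43.1 to 46.5) in the same order. Dicer1 was at 49.2 CPM (43.8 to 55.1), 54.1 CPM (51.9 to 56.3), 50.0 CPM (44.6 to 55.9) and 53.8 CPM (52.0 to 55.7). For both Dgcr8 and Dicer1, no neighbours in the order of the 4 classes differed beyond counting error.

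Among the Tnrc6 genes, Tnrc6a stood out in KO 48h-EpiLCs, with 113.8 CPM (111 to 117) against 92.6 CPM (85.2 to 100.5) in WT 48h-EpiLCs, 88.9 CPM (86.1 to 91.7) in KO ESCs and 85.5 CPM (78.3 to 93.1) in WT ESCs. By the rule, these other 3 classes followed each other in order without a step beyond counting error. With lines from the score described further on, WT ESCs lay below both KO ESCs and WT 48h-EpiLCs by more than counting error. Tnrc6b by the rule divided the lines instead, at 37.0 CPM (32.4 to 42.2) in WT and 49.6 CPM (47.5 to 51.7) in KO ESCs. In 48h-EpiLCs it was at 41.3 CPM (36.4 to 46.7) in WT and 52.3 CPM (50.4 to 54.1) in KO cells. Tnrc6c ran the other way, from 43.5 CPM (38.5 to 49.1) in WT ESCs over 35.4 CPM (33.7 to 37.2) in KO ESCs and 31.4 CPM (27.1 to 36.1) in WT 48h-EpiLCs to 26.5 CPM (25.3 to 27.9) in KO 48h-EpiLCs. Its highest and lowest class were thus WT ESCs and KO 48h-EpiLCs.

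**Figure D1:**
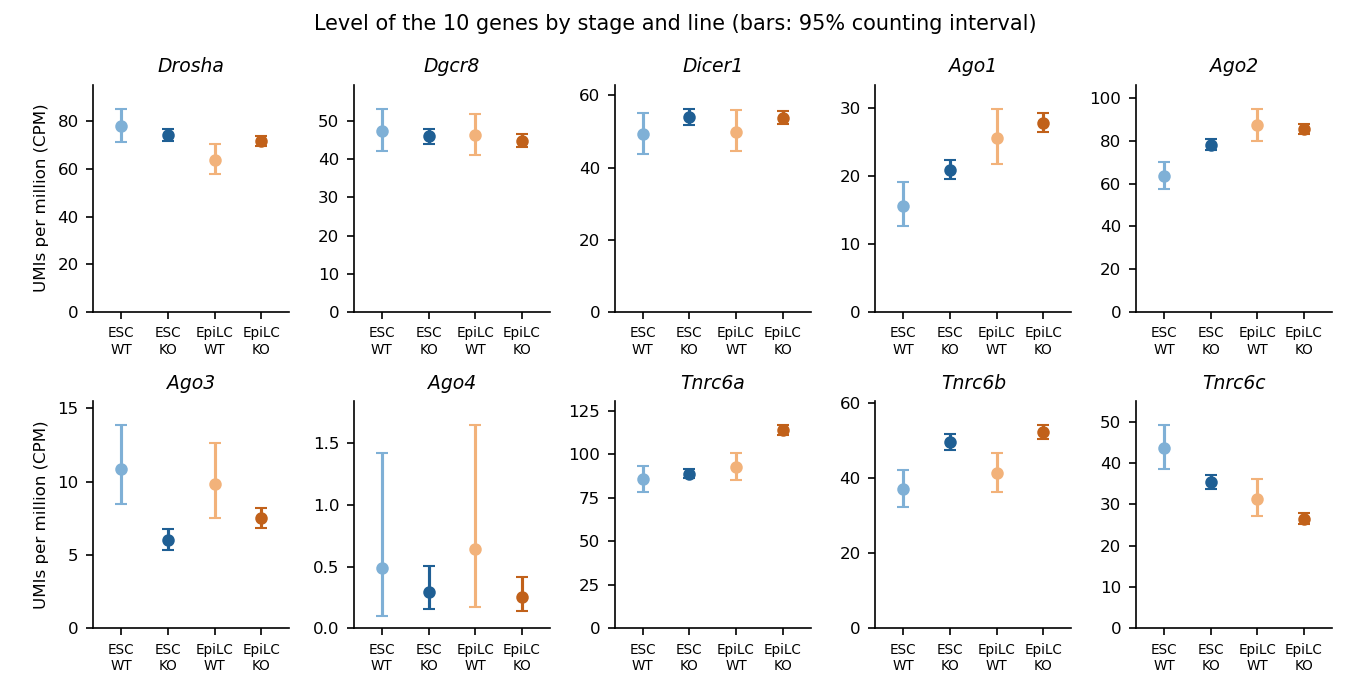
Level of each gene in CPM (y axis, a separate scale from 0 for each gene) in WT and KO ESCs and WT and KO 48h-EpiLCs (x axis); points are class sums and bars 95% counting intervals. Ago1 and Ago2 are lowest in WT ESCs (15.6 and 63.7 CPM), Tnrc6a is highest in KO 48h-EpiLCs (113.8 CPM), and Dgcr8 and Dicer1 are level.

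The first comparison asked how the pathway differs between KO and WT ESCs. Ago3 was lower in KO cells by a log2 ratio of -0.86 (-1.25 to -0.45), and Tnrc6c by -0.30 (-0.49 to -0.11). Ago1 was higher with a log2 ratio of 0.42 (0.12 to 0.74), Tnrc6b of 0.42 (0.22 to 0.62) and Ago2 of 0.30 (0.15 to 0.45). The intervals of Dicer1 (0.14), Tnrc6a (0.06), Dgcr8 (-0.05) and Drosha (-0.07) included 0. Of the 9 genes with a mean of at least 5 CPM in these classes, all except Ago4, 0 were at least 1.5-fold higher in KO cells, against 13.9% of all 9277 genes of that level, and 1, Ago3, was at least 1.5-fold lower, against 5.61%. The median log2 ratio was 0.06 over the 9 genes and 0.13 over all genes. Of all genes past 1.5-fold, 71.2% were higher in KO cells with class totals and 56.4% with median-of-ratios scaling, under which the median of all genes was 0.02 and Tnrc6a was at -0.05. Relative to the median of all genes, Ago1 was 0.29 and Ago2 was 0.17 higher in KO cells.

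In 48h-EpiLCs, KO cells were higher than WT cells for Tnrc6b (log2 ratio 0.34, 0.15 to 0.53), Tnrc6a (0.30, 0.17 to 0.42) and Drosha (0.17, 0.02 to 0.32) and lower for Tnrc6c (-0.24, -0.46 to -0.02). When only cells with 8000 to 20000 UMIs were used, which left 271 of 368 WT and 1820 of 2977 KO 48h-EpiLCs, Tnrc6c was at 0.081, and without the cells of the top 10% of UMIs it was at -0.16. The part of depth in this was not tested. Ago3 was at -0.39 (-0.78 to 0.02), and Ago1, Ago2, Dgcr8 and Dicer1 lay between -0.05 and 0.12 with intervals that included 0. None of the 9 genes, 0 higher and 0 lower, was 1.5-fold apart, against 9.04% of 9385 genes higher and 4.95% lower in KO cells. The median was 0.11 over the 9 genes and 0.08 over all genes.

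The KO to WT ratio itself was compared between the stages, with an approximate 95% counting interval. For Ago2 it was 0.33 lower on the log2 scale in 48h-EpiLCs than in ESCs (difference -0.33, -0.53 to -0.13), and for Tnrc6a it was 0.24 higher (0.06 to 0.42), as for Drosha (0.24, 0.04 to 0.45). The intervals of the other 7 genes included 0, among them Ago3 (0.47, -0.08 to 1.01). With lines assigned by the score described further on, the differences of Ago2 (-0.42, -0.49 to -0.34), Drosha (0.25, 0.18 to 0.33) and Tnrc6a (0.12, 0.05 to 0.19) kept their sign, and those of Tnrc6b (-0.23, -0.33 to -0.12), Ago1 (-0.18, -0.33 to -0.03) and Dicer1 (-0.15, -0.24 to -0.05) lay off 0 as well. The share of all genes with such a difference off 0 was not computed, so these intervals mark no trait of the 10 genes. By the rule, the median log2 ratio of KO to WT over all genes was itself 0.13 in ESCs and 0.08 in 48h-EpiLCs.

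**Figure D2:**
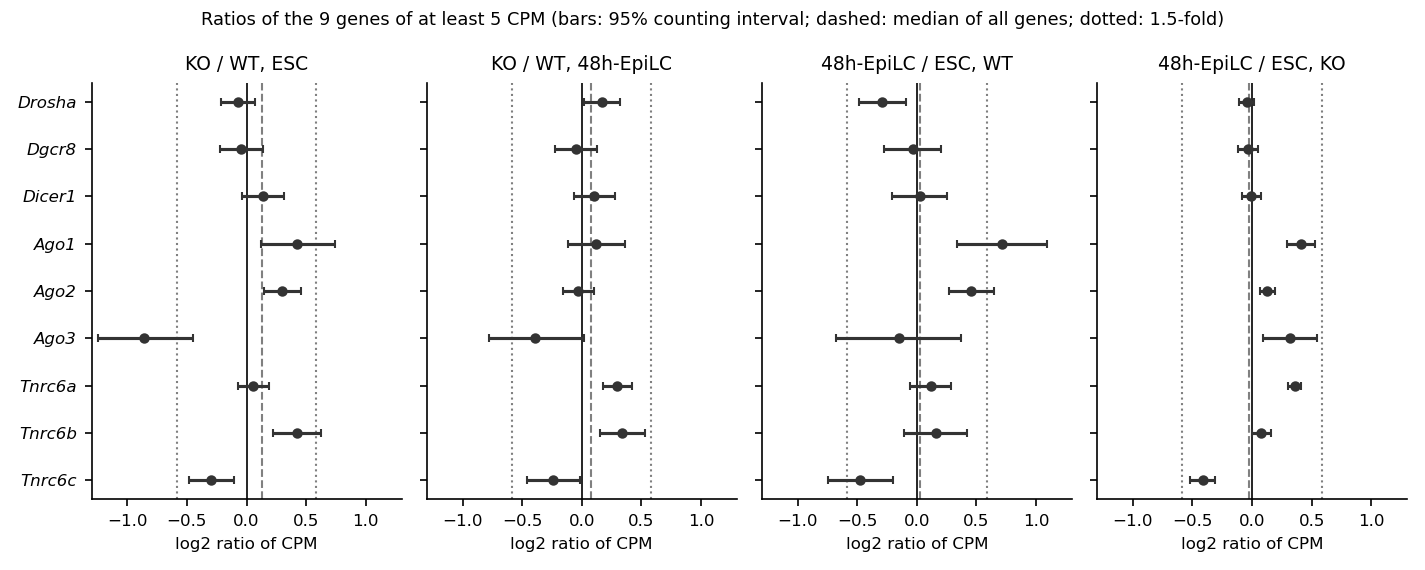
Log2 ratio of CPM (x axis) of the 9 genes of at least 5 CPM (y axis) in 4 comparisons, with 95% counting intervals, the median of all genes (dashed) and 1.5-fold (dotted). Ago3 lies past 1.5-fold in KO over WT ESCs (-0.86) and Ago1 in WT 48h-EpiLCs over ESCs (0.71); the other points lie within 1.5-fold.

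The stages were then compared within each line. In WT cells, Ago1 was higher in 48h-EpiLCs than in ESCs with a log2 ratio of 0.71 (0.34 to 1.09) and Ago2 with 0.46 (0.27 to 0.65). Tnrc6c was lower at -0.47 (-0.75 to -0.20) and Drosha at -0.29 (-0.48 to -0.09). Of the 9 genes, 1 (Ago1) was at least 1.5-fold higher, against 14.6% of 9242 genes, and 0 were at least 1.5-fold lower, against 12.4%. In KO cells, Ago1 was higher in 48h-EpiLCs by 0.41 (0.30 to 0.53), Tnrc6a by 0.36 (0.30 to 0.41), Ago3 by 0.32 (0.10 to 0.54) and Ago2 by 0.13 (0.07 to 0.19), and Tnrc6c was lower at -0.41 (-0.52 to -0.31). Here 0 of the 9 genes were 1.5-fold higher, against 9.51% of 9478 genes, and 0 were 1.5-fold lower, against 11.1%. The median over the 9 genes was 0.02 in WT and 0.08 in KO cells, beside 0.03 and -0.02 over all genes. Both lines thus had more Ago1 and Ago2 and less Tnrc6c in the 48h-EpiLC library, and these 3 directions held under each of 11 other settings of scaling, cell filter and line. Not every setting could change them. A pseudocount cannot turn a sign, and a stricter Y-linked cut for KO leaves the WT ratios as they were.

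The make-up of the gene families differed with them. The 4 Argonaute genes summed to 90.7 CPM in WT ESCs, 106 CPM in KO ESCs, 123 CPM in WT 48h-EpiLCs and 121 CPM in KO 48h-EpiLCs. Ago2 held 70.3%, 74.2%, 70.8% and 70.7% of those UMIs in that order. The share of Ago3 was 12.0% (9.43 to 15.0) in WT ESCs and 5.69% (5.04 to 6.39) in KO ESCs, and 7.94% (6.13 to 10.1) and 6.17% (5.63 to 6.75) in WT and KO 48h-EpiLCs. WT ESCs therefore gave the largest share of Ago3 UMIs among the 4 classes, but with an interval that overlapped that of WT 48h-EpiLCs. The Tnrc6 genes summed to 166, 174, 165 and 193 CPM in the same order of classes. Tnrc6c made up 26.2% (23.5 to 29.0) of them in WT ESCs, 20.4% (19.5 to 21.3) in KO ESCs, 18.97% (16.6 to 21.5) in WT 48h-EpiLCs and 13.8% (13.2 to 14.4) in KO 48h-EpiLCs. The share of Tnrc6b was 22.3% in WT and 28.5% in KO ESCs. Shares are of 3′-end UMIs, and compare the classes rather than the amounts of the proteins.

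**Figure D3:**
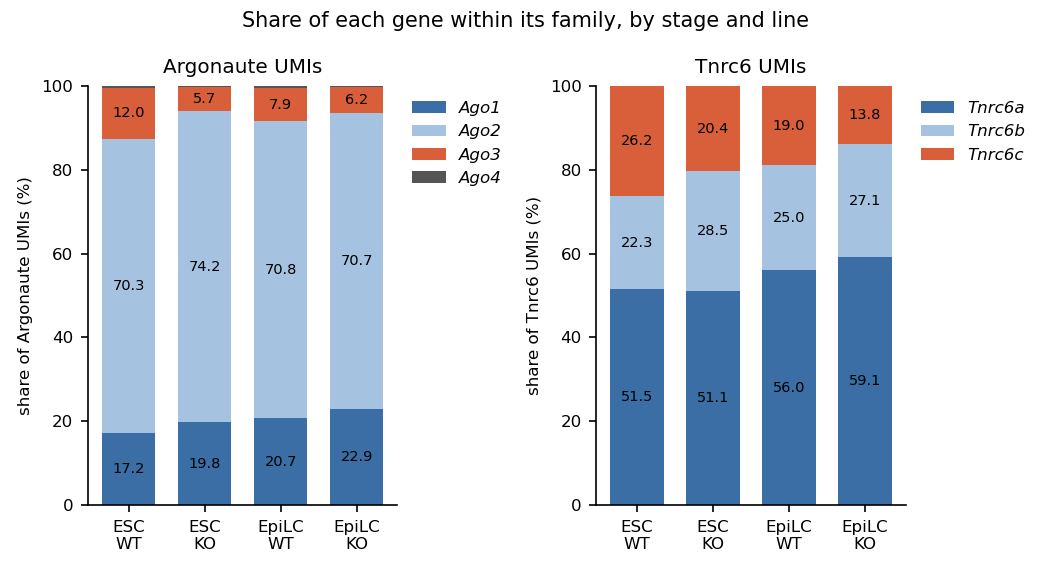
Share of each gene (y axis, %) in the summed UMIs of the 4 Argonaute genes (left) and the 3 Tnrc6 genes (right) in WT and KO ESCs and WT and KO 48h-EpiLCs. The share of Ago3 is 12.0% in WT ESCs against 5.69% in KO ESCs, and that of Tnrc6c goes from 26.2% in WT ESCs to 13.8% in KO 48h-EpiLCs.

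The rule leaves most cells without a line, so lines were also assigned to nearly all kept cells by a score over 1149 (ESC) and 787 (48h-EpiLC) other genes that differed between the rule's own WT and KO cells. The score excluded the 10 genes, the pathway and host lists, tdTomato, the Y-linked genes of the rule, Xist and Tsix. Other X-linked and Y-linked genes could enter it, so it is not free of sex. As a check, a separate score was built in the same way from every other cell of the rule. By its sign, 96.9% of WT and 96.7% of KO ESCs left out of it fell on the side of their line. The shares were 97.3% of WT and 96.5% of KO 48h-EpiLCs. The score used to assign lines was built on all of the rule's cells, and its cut was not checked in this way. The score gave 4243 WT and 6723 KO ESCs and 4056 WT and 5250 KO 48h-EpiLCs. Its WT cells still held the rule's Y-linked UMIs at 10.6 CPM in ESCs and 10.7 CPM in 48h-EpiLCs, against 122 and 114 CPM in its KO cells. With these larger classes Ago3 remained lower in KO ESCs at 6.25 against 8.93 CPM, but the log2 ratio was -0.51 (-0.69 to -0.33) and no longer reached 1.5-fold. In 48h-EpiLCs the interval of Ago3 now lay below 0 (-0.35, -0.51 to -0.19). Tnrc6b reached 1.5-fold in KO over WT ESCs at 0.59 (0.50 to 0.67), and Tnrc6c was lower in KO cells at both stages (-0.40, -0.47 to -0.32, and -0.35, -0.43 to -0.26). Drosha lay on opposite sides of 0, at -0.13 (-0.19 to -0.08) in ESCs and 0.12 (0.07 to 0.18) in 48h-EpiLCs. The medians of all genes were 0.16 and 0.10 in these comparisons. Dicer1, within counting error by the rule, was at 53.9 CPM in KO and 46.4 CPM in WT ESCs (0.22, 0.15 to 0.29) and Dgcr8 at 45.5 and 42.4 CPM (0.10, 0.03 to 0.17). For Ago2 the ratio was 0.41 (0.35 to 0.47) in ESCs and -0.01 (-0.05 to 0.04) in 48h-EpiLCs. Ago1 in WT 48h-EpiLCs over WT ESCs was at 0.56 (0.44 to 0.68), below 1.5-fold. Tnrc6a was at 0.18 (0.12 to 0.23) in KO over WT ESCs and at 0.25 (0.20 to 0.31) in WT 48h-EpiLCs over WT ESCs. For Tnrc6b, 48h-EpiLCs over ESCs were at 0.32 (0.24 to 0.41) in WT and 0.10 (0.04 to 0.16) in KO cells. The medians of all genes between the stages were 0.04 in WT and -0.02 in KO cells.

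**Figure D4:**
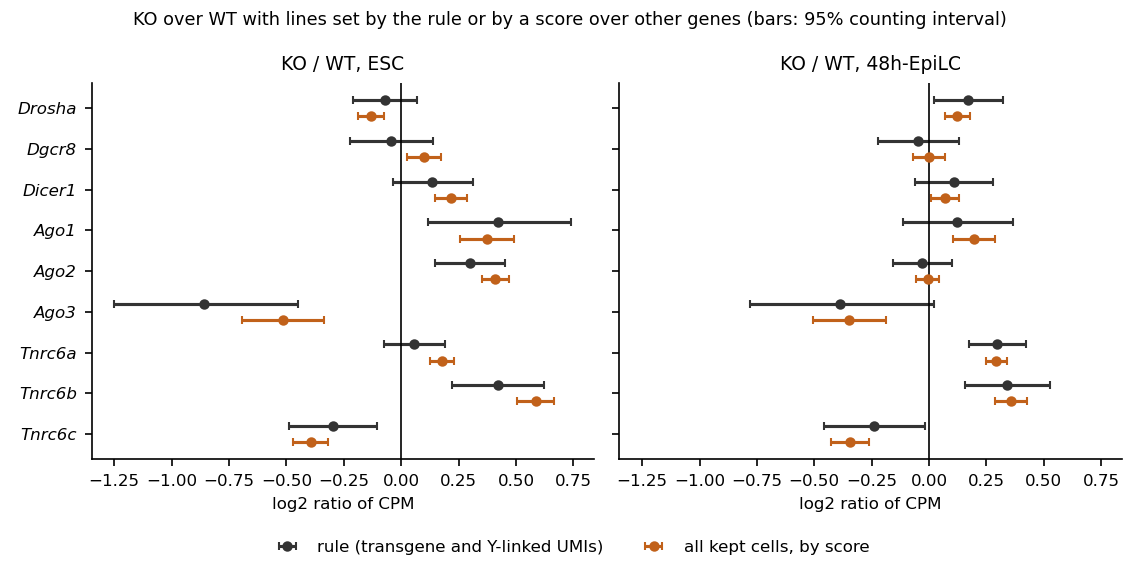
Log2 ratio of KO over WT (x axis) for 9 genes (y axis) in ESCs (left) and 48h-EpiLCs (right), with lines set by the rule (black) or by the score over other genes (orange), and 95% counting intervals. Ago3 in ESCs is at -0.86 by the rule and -0.51 by the score, and Ago2 lies above 0 in ESCs but at -0.03 (rule) and -0.01 (score) in 48h-EpiLCs.

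The ESC library also held cells of other types, which fell unevenly over the WT and KO classes. By at least 3 of 8 markers at 2 or more UMIs, 94 kept cells carried feeder fibroblast markers (0 of them WT, 37 KO) and 138 carried primitive endoderm markers (4 WT, 58 KO), while no 48h-EpiLC did. Of the 94 feeder-marked cells 0 held tdTomato, so the rule could class them as KO but not as WT. The uneven feeder split, and its part in the feeder-marker levels that follow, therefore came from the rule. The summed level of the 8 feeder markers was 10.2 CPM in WT and 38.7 CPM in KO ESCs (2 markers, Col6a1 and Lum, at 0 in WT), and that of the 8 primitive endoderm markers 36.7 and 56.2 CPM. Against the 2880 KO ESCs without such markers, feeder-marked cells had less Drosha (36.6 against 74.7 CPM, log2 ratio -1.03, -1.41 to -0.67) and Dgcr8 (28.6 against 46.1 CPM), and more Ago3 (14.9 against 5.88 CPM, log2 ratio 1.34, 0.69 to 1.92) and Ago2 (99.4 against 77.7 CPM). Primitive endoderm-marked cells had less Tnrc6b (24.3 against 50.0 CPM, log2 ratio -1.04, -1.49 to -0.63) and Ago1 (11.9 against 21.3 CPM), and more Dicer1 (69.8 against 53.9 CPM). Marked cells were taken whatever their class, so cell type is mixed with line in these ratios. Ago3 in feeder-marked cells (9.71 to 21.8 CPM) overlapped WT ESCs (8.44 to 13.8 CPM). So did Ago1 in primitive endoderm-marked cells (7.54 to 17.8 against 12.6 to 19.05 CPM). The intervals of the other genes named here did not overlap those of WT ESCs. Without all marked cells, Ago3 in KO over WT ESCs was at -0.88, Ago1 at 0.45 and Tnrc6b at 0.43, so the differences were as large without them.

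**Figure D5:**
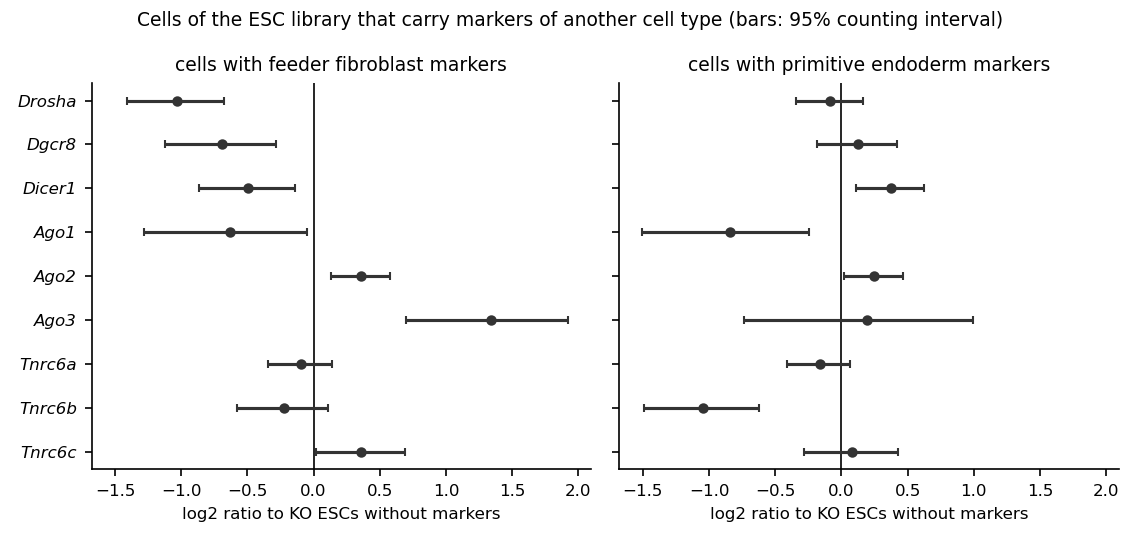
Log2 ratio (x axis) of 9 genes (y axis) in ESC-library cells with feeder fibroblast markers (left, 94 cells) or primitive endoderm markers (right, 138 cells) to KO ESCs without markers, with 95% counting intervals. Marked cells were taken whatever their class, so cell type is mixed with line. Ago3 is highest and Drosha lowest in feeder-marked cells (1.34 and -1.03), and Tnrc6b is lowest in primitive endoderm-marked cells (-1.04).

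Single cells held few UMIs of these genes. After each cell had been thinned to 5000 UMIs (which left out 1, 23, 1 and 9 shallower WT ESCs, KO ESCs, WT 48h-EpiLCs and KO 48h-EpiLCs), the median cell had UMIs of 2 of the 10 genes in all 4 classes. No UMI of any was found in 11.8%, 11.1%, 11.4% and 8.49% of cells. Tnrc6a was seen in 37.3% (32.8 to 42.1) of thinned WT ESCs, 35.7% (33.9 to 37.4) of KO ESCs, 39.0% (33.9 to 44.2) of WT 48h-EpiLCs and 43.7% (41.9 to 45.5) of KO 48h-EpiLCs, and in 65.7%, 68.3%, 74.5% and 84.4% before thinning. Ago3 was seen in 4.61% (2.84 to 7.03), 2.47% (1.94 to 3.10), 3.54% (1.90 to 5.98) and 3.74% (3.09 to 4.49) of thinned cells, and in 13.6%, 8.33%, 15.2% and 13.5% before thinning. These low shares do not separate expressing from silent cells, and no cell type in the libraries is known to lack these transcripts to set a background. The ratio of variance to mean over thinned cells was near 1, the value of Poisson counting, for most of the genes. It was highest for Ago2 in WT cells (1.21 in ESCs and 1.18 in 48h-EpiLCs, beside a median of 1.03 for genes of similar mean at each stage), against 1.06 and 1.03 in KO cells. Tnrc6c was close, at 1.15 and 1.17 in WT and 1.07 in both classes of KO cells. The WT values rest on 434 and 367 thinned cells, the KO values on 2955 and 2968, and no interval was computed. A difference between the lines can therefore not be read from them.

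Of 41 further protein genes of the pathway, 40 passed 5 CPM in KO over WT ESCs, of which 1 was at least 1.5-fold higher and 3 were lower, beside 13.9% and 5.61% of all genes. In 48h-EpiLCs 1 of 41 was higher and 1 lower in KO cells, beside 9.04% and 4.95%. Between the stages 3 of 40 were higher and 1 lower in WT cells, beside 14.6% and 12.4%, and 3 of 40 were higher and 2 lower in KO cells, beside 9.51% and 11.1%. Ddx6, an RNA helicase that represses mRNAs downstream of Tnrc6 and Ccr4-Not, was at 104 CPM in KO and 159 CPM in WT ESCs (log2 ratio -0.61, -0.71 to -0.51). Fxr2, an RNA-binding protein of the Fragile X family, was at 138 CPM in KO and 80.6 CPM in WT ESCs (0.78, 0.64 to 0.91). Lin28b, which blocks let-7 precursor processing, was at 16.1 CPM in KO and 24.9 CPM in WT 48h-EpiLCs (-0.63, -0.88 to -0.38). Ddx17, a helicase that works with the Microprocessor, was at 72.2 CPM in KO 48h-EpiLCs and 113 CPM in KO ESCs (-0.64, -0.70 to -0.58). None of the 6 loading genes, among them the chaperones Hsp90aa1, Hsp90ab1 and Hspa8, was 1.5-fold apart in any of the 4 comparisons.

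Of 11 microRNA host transcripts, 6 passed 5 CPM in KO over WT ESCs and in 48h-EpiLCs over ESCs in KO cells, and 5 in the other 2 comparisons. In 48h-EpiLCs over ESCs, 0 were at least 1.5-fold higher and 2 lower in WT cells, beside 14.6% and 12.4% of all genes. In KO cells these counts were 0 and 2, beside 9.51% and 11.1%. In KO over WT cells, 1 was higher and 0 lower in ESCs, beside 13.9% and 5.61%. In 48h-EpiLCs 0 were higher and 0 lower, beside 9.04% and 4.95%. H19, the host of miR-675, was at 41.8 CPM in WT ESCs and 19.8 CPM in WT 48h-EpiLCs (log2 ratio -1.08, -1.40 to -0.76), and at 52.7 and 16.3 CPM in KO cells (-1.69, -1.80 to -1.58). Mir17hg, the host of the miR-17 and miR-19 arms printed above, has a mean under 20 CPM in 3 of the 4 comparisons and was singled out after its values were seen. It was at 22.3 CPM (18.7 to 26.3) in WT ESCs, 21.4 CPM (20.1 to 22.9) in KO ESCs, 12.1 CPM (9.48 to 15.1) in WT 48h-EpiLCs and 17.1 CPM (16.0 to 18.2) in KO 48h-EpiLCs. Both 48h-EpiLC classes were thus below both ESC classes for Mir17hg, with WT 48h-EpiLCs lowest. Mir22hg, also under 20 CPM, was lower too, at 5.20 CPM in WT ESCs and 2.25 CPM in WT 48h-EpiLCs (32 and 14 UMIs). In KO cells it was at 8.25 and 4.44 CPM, and with H19 it made up the 2 lower hosts there. Meg3 and Rian were not lower in 48h-EpiLCs. Meg3 was at 258 CPM in WT ESCs and 315 CPM in WT 48h-EpiLCs, and at 217 and 285 CPM in KO cells. Rian was at 73.4 and 92.4 CPM in WT and 59.0 and 77.3 CPM in KO cells. Mirg stayed level, at 16.1 CPM in WT cells of both stages and at 17.7 and 17.4 CPM in KO cells.

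For the 3 genes with the widest range of CPM, the genes of the most similar pattern over the 4 classes were sought among 5573 genes of at least 20 CPM, by the Euclidean distance of log2 CPM centred over the classes. For Tnrc6a these were Emc8 (0.03), Asrgl1 (0.04) and Uqcc1 (0.05), for Ago2 Marcksl1 (0.02), Itm2b (0.03) and Tial1 (0.03), and for Tnrc6c Ccnl1 (0.02), Akt1s1 (0.04) and Dppa5a (0.04). Within a distance of 0.1 there were 25, 41 and 17 genes. With only 4 classes such likeness is common, and it is a description.

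In position, the genes fell on 6 chromosomes of GRCm38 (GENCODE M21). Ago3 (chr4:126331704-126429556), Ago1 (chr4:126435012-126468583) and Ago4 (chr4:126489541-126533472) are neighbours on the minus strand, 5455 and 20957 bases apart, with no other protein-coding gene between them. These neighbours did not share a pattern, since Ago1 was higher and Ago3 lower in KO than in WT ESCs and Ago4 was nearly at 0. Drosha (chr15:12824815-12935291), Ago2 (chr15:73095844-73184935) and Tnrc6b (chr15:80711313-80941085) lie on chromosome 15, Dgcr8 at chr16:18253948-18289246, Dicer1 at chr12:104687742-104751952, Tnrc6a at chr7:123123885-123195296 and Tnrc6c at chr11:117654289-117763439. The 3′ UTR of the longest coding transcript ran from 171 bases in Drosha to 12745 in Ago3, so 3′-end counts of the genes are not compared with each other. Dgcr8 overlaps Trmt2a and Ago2 overlaps Chrac1 on the opposite strand, and Tnrc6b overlaps Gm49512 on its own strand. By the study's methods Cell Ranger ran with default parameters, under which reads of 3′ libraries are counted on the sense strand, so the same-strand overlap of Tnrc6b is the one that leaves its value uncertain.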

How the data were processed

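The 2 libraries (1 per stage, WT and KO cells mixed) were deposited by the authors as counts of UMIs per gene and cell barcode, made with Cell Ranger (version 3.0.2) and an mm10 reference to which tdTomato had been added. The labels name the v2 3′ kit, state wild type as the genotype of both mixed libraries, and the study's general protocol starts EpiLCs from 2i/LIF ESCs, whereas the ESC library was from serum/LIF. No correction for free RNA was stated.

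Kept cells, lines and class sums were as given above (Python 3.11.15, numpy 2.4.6, scipy 1.17.1, pandas 2.3.3). CPM carry exact Poisson intervals, ratios exact binomial intervals conditional on both counts, and shares Clopper-Pearson intervals, at 95%. Differences of ratios used a normal approximation. Genes whose mean over the 2 classes compared was at least 5 CPM entered the counts at 1.5-fold. Class totals were 6154790 and 44110356 UMIs (WT, KO ESCs) and 6219834 and 59291903 UMIs (WT, KO 48h-EpiLCs). No doublet caller was run, and leaving out the 10% of cells with the most UMIs stands in for it. The code was tested on simulated data. All 10 genes were named, with those of the pathway list past 1.5-fold at a mean of at least 20 CPM. The members and lists were chosen with earlier results of these data known. GENCODE M21 held 32158 of 32286 features (99.6%), and 1738 mature microRNAs came from RefSeq. Alternatives concerned the rule for lines, scaling, depth, filters on cells and genes, marked cells, a pseudocount of 1 CPM and the threshold.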

Additional observations from a re-analysis of the deposited data

How the results depend on the processing

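Of 440 ratios of single genes under 11 alternatives, 7 lay outside the counting interval of the reported value and 24 had the opposite sign. Some of the 440 could not differ in sign, namely those with a pseudocount and those between WT classes under the stricter Y-linked cut for KO. For 1 of the 24 with the opposite sign the reported interval did not include 0, that of Tnrc6c in KO over WT 48h-EpiLCs, at 0.081 with cells of 8000 to 20000 UMIs. In KO over WT ESCs, the count of genes at least 1.5-fold lower was 0 with at least 4 Y-linked UMIs for KO, 0 with lines from the score, 0 at 2-fold and 2 without the filter on low values, which adds Ago4. The count at least 1.5-fold higher there was 1 with lines from the score (Tnrc6b), 1 with 8000 to 20000 UMIs and 1 without the top 10% of UMIs (Ago1 in both). In KO over WT 48h-EpiLCs, 1 was lower without the filter (Ago4). In 48h-EpiLCs over ESCs of WT cells, 0 were higher with the score and 0 at 2-fold, and 1 (Tnrc6c) was lower with 8000 to 20000 UMIs. The median over the genes ranged from -0.05 to 0.18 and from 0.01 to 0.15 in KO over WT ESCs and 48h-EpiLCs, and from -0.01 to 0.18 and 0.002 to 0.13 between the stages in WT and KO cells. Since medians lay this close to 0, their sign carries no information. The cause of these shifts was not tested. No paired analysis was possible because each stage has 1 library, and for the same reason no replicate could be left out. Depth limits Ago4 and Ago3 in WT cells most (3 and 67 UMIs in WT ESCs).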
